A study of Mus musculus with 9 samples.

Results

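Livers of mice taken 6 h after an overdose of acetaminophen (APAP) were compared with control livers (NC). The comparison covered all genes whose FPKM averaged 1 or more across the 9 libraries of the series. This rule kept 9699 of the 54532 genes in the deposited table, and the comparison used 6 of the 9 libraries, 3 of each group, each from a different mouse. FPKM is the deposited unit, fragments per kilobase of gene with the libraries scaled to each other for depth. All mice were male C57BL/6 of 5 to 7 weeks. The APAP group was fasted overnight, received 500 mg/kg APAP by intraperitoneal injection and a vehicle without cells, and was studied 6 h after APAP. The methods of the study give an overnight fast for all animals in a sentence about APAP dosing, which may or may not cover NC mice, and the labels do not say whether NC mice were fasted or injected, so an effect of the fast and an effect of APAP cannot be told apart. The remaining 3 libraries of the series, from mice that also received stem cells, entered here only through the mean used as a filter.

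Between 14920463 and 15444087 reads fell on genes in the NC libraries and between 13640978 and 14167230 in the APAP libraries, and each library had between 17967 and 18374 genes above 0. A tested gene had a median of 315 reads per library. Per kilobase of gene, 1 read was worth 0.0578 to 0.0807 FPKM, so values near that level rest on few reads. On a principal component analysis of the tested genes, component 1 held 73.05% of the variance and separated all NC livers from all APAP livers. APAP 1 lay nearest the NC livers on it and APAP 2 farthest, an order that returns in many of the genes described here. Values are given in the order of replicates 1, 2 and 3 of each group, and n = 3 in each. The title of NC 3 carries another date than those of the other libraries, and what the date stands for is not given.

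Hepatocytes around the central vein of the liver lobule, where CYP2E1 is most abundant, are the first to die of too much APAP. There the enzyme makes NAPQI, a metabolite that reacts with thiols of glutathione and of proteins, and stress kinases such as JNK become active.

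The tests were made with limma on log2(FPKM + 1), and a gene is said to have risen or fallen where its adjusted p was at most 0.05 and its log2 fold change at least 1 in either direction. A number alone in parentheses after a gene is its log2 fold change, and a lowest or highest value beside an adjusted p is that over all alternatives. Beside a median, scaled marks that with the libraries scaled to all reads, quantile that after quantile normalization, and less 1 the range with each library left out, where they differ by more than 1.5 times or in sign. A gene said to overlap other genes shares exon bases with them, and its values are uncertain. By the rule above, 494 genes rose and 272 fell, which is 5.09% and 2.80% of the genes tested. The count of each list below is to be read beside these shares. The groups did not overlap in 759 of these 766 genes, against 43.2% of all genes tested. For a called gene, groups that lie apart therefore add little to the call. Of the genes that rose, 157 had a log2 fold change of at least 2 and 65 of at least 3, against 38 and 9 of those that fell. Of the genes that rose, 133 had an NC mean under 1 FPKM, and of those that fell, 46 had an APAP mean under 1 FPKM. A gene with an NC mean under 1 FPKM passed the filter through the other groups, which favours rises. The median log2 fold change of all genes tested was -0.0043 with the deposited scaling and -0.22 with the libraries scaled to all reads on genes, and the same split was then 361 higher and 473 lower. Changes below are relative to the deposited scaling. Among all reads, those on the albumin gene made up 7.39% to 7.77% in the NC livers and 9.31% to 10.2% in the APAP livers, and the 10 most abundant genes 17.8% to 18.6% and 20.8% to 21.9%.

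Marker genes were summed to check the label liver and to see which cell types the libraries held. The 7 hepatocyte markers in the table, of 8 listed, summed to 41486, 39621 and 43025 FPKM in NC and 56788, 65353 and 66728 after APAP, with Alb the most abundant. None was called (4 higher and 0 lower at an unadjusted p under 0.05 with limma, 0 higher and 0 lower under voom), with a median log2 fold change of 0.45 (0.19 scaled, 0 quantile). Apoa1, the main protein of high-density lipoprotein, stood at 5104, 5931 and 6022 FPKM in NC and 6995, 10103 and 11133 after APAP. In these bulk libraries, fewer cells of a type and less RNA per cell cannot be told apart, and this holds for every marker named here.

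Markers of platelets, red cells and neutrophils were higher after APAP. All 4 platelet markers rose and summed to 0.639, 1.10 and 1.41 FPKM in NC and 16.7, 19.8 and 21.3 after APAP. Pf4, a chemokine stored in platelet granules and the most abundant of the 4, stood at 0.166, 0.642 and 0.886 FPKM in NC and 7.96, 8.73 and 9.29 after APAP (log2 fold change 2.65, SE 0.19, adjusted p = 0.000139). The platelet proteins Ppbp (2.61), Gp9 (1.84) and Itga2b (1.21) also rose. The NC mean of each of the 4 was under 1 FPKM. Erythroid markers, of which 4 of 5 rose, summed to 137, 135 and 254 FPKM in NC and 1073, 306 and 1406 after APAP. Hbb-bs, a beta globin and the most abundant of them, stood at 44.6, 47.6 and 116 FPKM in NC and 566, 125 and 673 after APAP, high in APAP 1 and 3 and close to NC 3 in APAP 2. Globin genes have near-identical paralogs, with which reads may be shared. The part of blood held in the liver in these values was not tested. The erythroid markers had 2 rises without APAP 1 or APAP 3 and 0 rises without NC 1 or NC 2 or over all genes above 0. For Hbb-bs, the call ended without APAP 1, APAP 3, NC 1 or NC 2 (adjusted p = 0.0607, 0.0748, 0.0833 and 0.0890). With all genes above 0 tested, the call of Hbb-bs ended (adjusted p = 0.144, lowest 0.00453).

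The 10 neutrophil markers summed to 0.491, 0.461 and 2.09 FPKM in NC and 36.0, 7.89 and 16.7 after APAP. The 3 that were tested rose, but their NC means were under 1 FPKM, so that count does not describe the 7 others. S100a9, which with S100a8 forms calprotectin and was the most abundant, stood at 0, 0 and 0.668 FPKM in NC and 18.3, 3.71 and 7.41 after APAP, with APAP 1 highest. S100a8 (2.11) and Retnlg (1.74) followed the same order of libraries. The granule genes Ngp and Camp were at 0 in all 6 libraries, and Ly6g was above 0 in APAP 2 alone, at 0.0857 FPKM. Testing all genes above 0 ended the call of S100a8 (adjusted p = 0.0976, lowest 0.00398).

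The 10 Kupffer cell markers, all tested, summed to 109.5, 108 and 205 FPKM in NC and 288, 156 and 402 after APAP, C1qa being the most abundant, and NC 3 lay above APAP 2. Of them 1 rose, Timd4 (1.02), and there too NC 3 was above APAP 2. The 8 monocyte and macrophage markers, 3 of them tested, summed to 129, 119 and 117 FPKM in NC and 226, 158 and 183 after APAP, with Fn1, also made by hepatocytes, the most abundant. Cd68, a lysosomal protein of macrophages, rose from 3.25 ± 1.22 to 9.78 ± 0.915 FPKM (SD) and S100a4 was at 0 in all 6 libraries. The monocyte genes Ly6c2 (0.177 and 0.110 FPKM on average in NC and APAP livers), Ccr2 (0.103 and 0.0563) and Chil3 (0.0119 and 0) were too low to be tested. The 14 markers of sinusoidal endothelial cells, 13 tested, summed to 36.1, 45.1 and 80.7 FPKM in NC and 117, 39.3 and 65.0 after APAP, with Clec4g the most abundant. None of them was called by limma (2 higher and 0 lower at an unadjusted p under 0.05), and there were 2 higher and 0 lower under voom. The 13 markers of stellate cells and fibroblasts summed to 68.6, 88.0 and 117 FPKM in NC and 191, 101 and 174 after APAP, with Ecm1 the most abundant, and of these Hand2, a transcription factor of stellate cells, fell (log2 fold change -1.19, SE 0.15, adjusted p = 0.00187). In each of these 4 sums APAP 2 was the lowest of the APAP livers. Kupffer cell markers had 6 rises without APAP 2 and 3 rises without NC 3 or with the replicate block. Sinusoidal endothelial markers had 2 rises without APAP 2 or NC 3 and 1 rise with a pseudocount of 0.1 or in a fit of all 9 libraries. Stellate cell markers had 3 rises without APAP 2 and 1 rise in a fit of all 9 libraries, with the replicate block or under voom. Ecm1 was called without APAP 2 (adjusted p = 0.0270, highest 0.196). For Timd4, the call ended in limma without trend, after quantile normalization, with scaling to all reads or without APAP 1, APAP 3, NC 1 or NC 2 (adjusted p = 0.0502, 0.0601, 0.0757, 0.107, 0.135, 0.151 and 0.143). Over all genes above 0, no call was made for Timd4 (adjusted p = 0.196, lowest 0.0151). Fn1, Clec4g, Ecm1 and Hand2 overlap other genes.

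Cholangiocyte markers, 5 of 7 tested, summed to 22.6, 44.7 and 21.9 FPKM in NC and 60.0, 99.5 and 88.2 after APAP, with Spp1, osteopontin, the most abundant. Sox9, a transcription factor of biliary and progenitor cells, stood at 1.28, 2.14 and 0.970 FPKM in NC and 21.4, 33.1 and 25.6 after APAP (log2 fold change 3.50, SE 0.22, adjusted p = 8.04e-05). Its APAP livers were all above its NC livers. B cell markers, 2 of 6 tested, summed to 3.62, 5.13 and 8.54 FPKM in NC and 7.98, 4.40 and 10.9 after APAP, with Igkc the most abundant, T and NK cell markers, none of 10 tested, to 0.670, 2.19 and 2.20 FPKM in NC and 3.53, 1.65 and 2.40 after APAP, with Trbc2 the most abundant, and markers of pancreatic acini, none of 7 tested, to 0.144, 0.0336 and 0.101 FPKM in NC and 0.387, 0.140 and 0.213 after APAP, with Cela2a the most abundant. The part of any of these cell types in the changes of other genes was not tested. Cholangiocyte markers had 1 rise without APAP 2, APAP 3, NC 1 or NC 3, with scaling to all reads or over all genes above 0. Spp1 was no longer called with scaling to all reads or without APAP 2, APAP 3, NC 1 or NC 3 (adjusted p = 0.0642, 0.108, 0.0902, 0.110 and 0.0989). A test of all genes above 0 ended the call of Spp1 (adjusted p = 0.155, lowest 0.0123). Spp1 overlaps other genes.

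Of 17 pericentral genes, which mark hepatocytes around the central vein, 12 were tested and 9 fell, where 2.80% of all genes tested did, and all 12 had a negative log2 fold change, with a median log2 fold change of -2.28. Together they summed to 6718, 5302 and 5980.0 FPKM in NC and 2616, 618 and 1332 after APAP, and Cyp2e1 was the most abundant. APAP 2 had the lowest sum and APAP 1 the highest of its group, and all 3 lay below the NC livers. The pericentral markers had 4 falls over all genes above 0. The call of Cyp2e1 ended when all genes above 0 were tested (adjusted p = 0.103, lowest 0.00169).

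Glul, glutamine synthetase, which in the lobule is confined to the cells next to the central vein, stood at 270.0, 245 and 245 FPKM in NC and 45.5, 20.7 and 29.4 after APAP (log2 fold change -3.02, SE 0.26, adjusted p = 0.000296). Oat, ornithine aminotransferase, stood at 594, 355 and 504 FPKM in NC and 89.7, 14.0 and 33.7 after APAP (log2 fold change -3.71, SE 0.57, adjusted p = 0.00370). Slc1a2, a glutamate transporter of the same cells, stood at 12.6, 9.57 and 9.04 FPKM in NC and 0.971, 0.0614 and 0.283 after APAP (log2 fold change -3.02, SE 0.24, adjusted p = 0.000212). In all 3 genes every APAP liver lay below every NC liver, and APAP 2 was lowest and APAP 1 highest of the APAP livers, as in the sum. Tbx3, a transcription factor and target of Wnt signalling, stood at 2.95, 3.75 and 2.48 FPKM in NC and 0.934, 0.231 and 0.562 after APAP (log2 fold change -1.38, SE 0.20, adjusted p = 0.00282). The vitamin C synthesis gene Gulo (-2.25) and the hepatokine Lect2 (-2.56) fell as well. Other Wnt targets were too low to be tested: Sp5 stood at 0.942, 1.40 and 1.16 FPKM in NC and 0, 0 and 0 after APAP, Lgr5 at 0.543, 0.366 and 0.515 FPKM in NC and 0.0654, 0.0157 and 0.00725 after APAP and Axin2 at 0.893, 0.714 and 0.612 FPKM in NC and 0.271, 0.0879 and 0.176 after APAP. Each of these 3 had its APAP livers below its NC livers. When all genes above 0 were tested, Gulo and Lect2 lost their calls (adjusted p = 0.0837 and 0.0882, lowest 0.00129 and 0.00281). Glul, Slc1a2 and Tbx3 overlap other genes.

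Of 15 periportal genes tested, 3 rose, and 13 had a positive log2 fold change, with a median log2 fold change of 0.61 (0.35 scaled) and sums of 5375, 4608 and 4430.5 FPKM in NC and 6579, 7380.0 and 6535 after APAP. Sds, serine dehydratase, stood at 99.6, 81.7 and 91.6 FPKM in NC and 126, 422 and 300.5 after APAP, and every APAP liver lay above every NC liver, with APAP 2 highest and APAP 1 lowest, the reverse of the order of the pericentral genes. Cyp2f2, a cytochrome P450 of periportal hepatocytes, stood at 459, 479 and 506 FPKM in NC and 819, 818 and 725 after APAP and passed the adjusted p (0.00606) but not the fold change (0.71). Ass1, of the urea cycle, was the most abundant periportal gene. The periportal markers had 1 rise without APAP 3, NC 1, NC 2 or NC 3, after quantile normalization or with scaling to all reads and 0 rises without APAP 2 or over all genes above 0. For Sds, the call ended without APAP 2, APAP 3, NC 1, NC 2 or NC 3 (adjusted p = 0.0779, 0.0847, 0.0696, 0.0968 and 0.0740). With all genes above 0 tested, the call of Sds ended (adjusted p = 0.150, lowest 0.000638). Sds and Cyp2f2 overlap other genes.

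**Figure D1:**
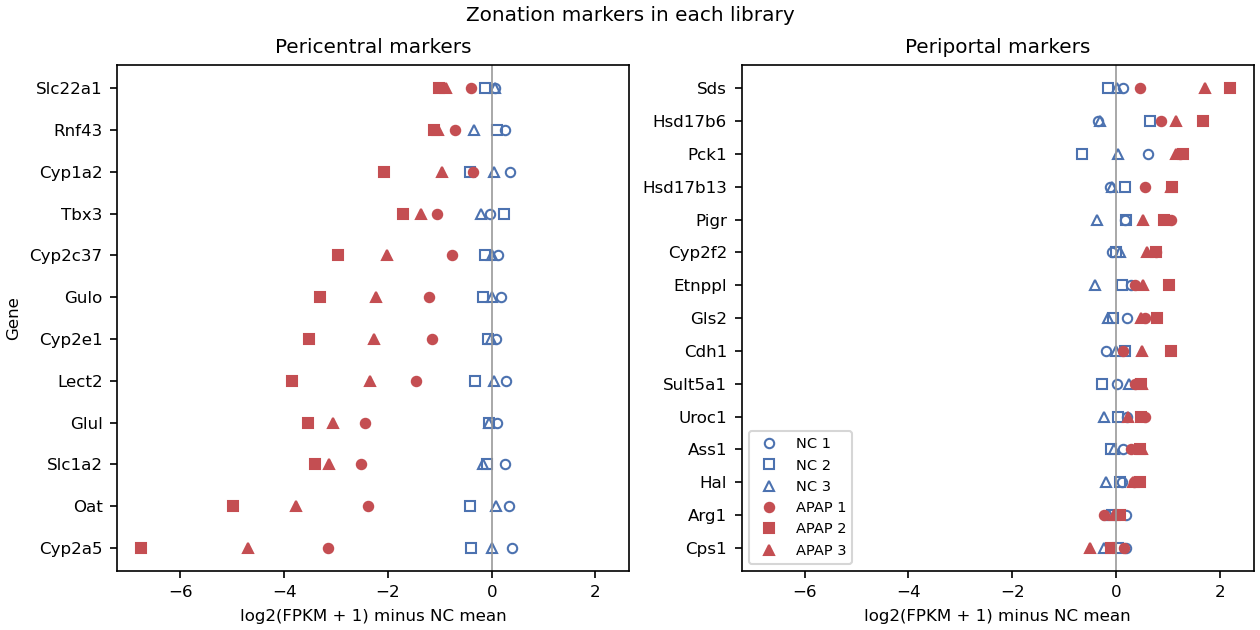
Pericentral and periportal markers in each library, as log2(FPKM + 1) minus the mean of the NC livers (horizontal axis) for each tested gene (vertical axis), with open symbols for NC and filled symbols for APAP livers and a shape for each replicate number. All 12 pericentral genes had negative log2 fold changes, with APAP 2 farthest to the left for most, while 13 of the 15 periportal genes had positive ones.

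In the list of APAP metabolism, 2 of 48 genes tested rose and 5 fell, against 5.09% and 2.80% of all genes tested. The list had a median log2 fold change of -0.11 (-0.36 scaled, -0.29 quantile, -0.18 to -0.09 less 1). Cyp2e1, the main enzyme of NAPQI formation, stood at 3605, 3247 and 3374 FPKM in NC and 1541, 294 and 705 after APAP (log2 fold change -2.31, SE 0.51, adjusted p = 0.0147). Cyp1a2, which also forms NAPQI, stood at 947, 553 and 764 FPKM in NC and 576, 173 and 378 after APAP, with NC 2 below APAP 1, and did not pass (adjusted p = 0.0832). Gclc, the catalytic subunit of the enzyme that limits glutathione synthesis, stood at 53.01, 42.0 and 32.5 FPKM in NC and 106, 290.1 and 170.0 after APAP and rose, and Gstp2, a glutathione transferase, rose from 4.30 ± 0.978 to 13.9 ± 4.48 FPKM (SD). Reads of Gstp2 may be shared with its near-identical paralog Gstp1, which stood at 1726, 1273 and 2142 FPKM in NC and 1812, 2811 and 3054 after APAP and did not pass. Gss, glutathione synthetase, stood at 11.6, 10.7 and 12.6 FPKM in NC and 12.2, 17.1 and 18.3 after APAP. The arylamine acetyltransferase Nat2 (-1.21) and the cysteine conjugate acetyltransferase Nat8 (-1.09) fell. The list of APAP metabolism had 1 rise over all genes above 0, 3 falls without NC 1 and 1 fall over all genes above 0. Cyp1a2 was called in a fit of all 9 libraries, after quantile normalization, with the replicate block, with scaling to all reads or without APAP 1 (adjusted p = 0.0430, 0.0322, 0.0150, 0.0340 and 0.0213, highest 0.274). Nat8 was no longer called without NC 1 (log2 fold change -0.84). Testing all genes above 0 ended the calls of Cyp2e1, Gclc and Nat8 (adjusted p = 0.103, 0.0553 and 0.0639, lowest 0.00169, 0.00169 and 0.00247). Gss overlaps other genes.

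Over the CYP genes of families 1 to 4, 1 of 43 genes tested rose and 8 fell, against 5.09% and 2.80% of all genes tested. The list had a median log2 fold change of 0.05 (-0.21 scaled, -0.11 quantile, -0.06 to 0.12 less 1). Cyp2a5, mouse coumarin hydroxylase, stood at 661, 386 and 510.3 FPKM in NC and 56.2, 3.66 and 18.6 after APAP (log2 fold change -4.87, SE 0.78, adjusted p = 0.00433), and every APAP liver lay below every NC liver, with APAP 2 lowest and APAP 1 highest. Cyp2c38 fell with the libraries in the same order, at 11.8, 10.02 and 8.93 FPKM in NC and 1.30, 0.141 and 0.519 after APAP (log2 fold change -2.82, SE 0.25, adjusted p = 0.000355). The Cyp2c genes are close paralogs that may share reads, so their separate values are uncertain. The CYP list had 3 rises without APAP 3, 0 rises without APAP 1, APAP 2, NC 1 or NC 2, with scaling to all reads or over all genes above 0, 5 falls without APAP 3 or NC 2, 4 falls without NC 1 or NC 3 and 1 fall over all genes above 0. Over all genes above 0, no call was made for Cyp2a5 (adjusted p = 0.0509, lowest 0.000839).

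NRF2 is a transcription factor that is freed from KEAP1 when that sensor is modified by electrophiles, and its targets make glutathione, thioredoxin and enzymes of detoxification. Of the list, 8 of 40 genes tested rose, with a median log2 fold change of 0.45 (0.23 scaled). Hmox1, heme oxygenase 1, stood at 4.55, 4.56 and 9.92 FPKM in NC and 556, 1115 and 834 after APAP (log2 fold change 6.85, SE 0.33, adjusted p = 3.09e-05), and every APAP liver lay above every NC liver, with APAP 2 highest and APAP 1 lowest. Srxn1, which restores overoxidized peroxiredoxins, stood at 15.5, 17.0 and 11.8 FPKM in NC and 48.9, 314 and 213 after APAP (log2 fold change 3.27, SE 0.60, adjusted p = 0.00762). Gsta1, a glutathione transferase, rose (3.89). Sqstm1, the autophagy receptor p62 that binds KEAP1, stood at 91.0, 89.4 and 94.8 FPKM in NC and 299, 733 and 523 after APAP (log2 fold change 2.39, SE 0.29, adjusted p = 0.00155). Each of these 4 had its APAP livers above its NC livers. Txnrd1, thioredoxin reductase, rose from 20.9 ± 1.83 to 51.7 ± 19.4 FPKM (SD). Gclm, the partner of Gclc, and Gsr, glutathione reductase, passed the adjusted p (0.0415 and 0.00644) but not the fold change (0.40 and 0.83). Nfe2l2, which encodes NRF2, stood at 10.9, 12.9 and 15.8 FPKM in NC and 17.5, 16.3 and 17.8 after APAP and did not pass. NRF2 targets had 5 rises over all genes above 0 and 2 falls with scaling to all reads. They had 1 fall in a fit of all 9 libraries, with the replicate block or without APAP 1, APAP 3 or NC 2. Txnrd1 was no longer called with scaling to all reads or without APAP 2 (log2 fold change 0.95 and 0.94). A test of all genes above 0 ended the calls of Srxn1, Txnrd1 and Gclc (adjusted p = 0.0690, 0.0814 and 0.0553, lowest 6.16e-05, 0.00184 and 0.00169). Sqstm1 and Gclm overlap other genes.

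Of genes that remove peroxide and superoxide, 3 of 26 genes tested rose, against 5.09% of all genes tested. The list had a median log2 fold change of 0.01 (-0.24 scaled, -0.20 quantile, -0.07 to 0.12 less 1). Txnip, which binds and inhibits thioredoxin, stood at 6.39, 9.79 and 17.5 FPKM in NC and 46.2, 39.97 and 42.9 after APAP (log2 fold change 1.95, SE 0.30, adjusted p = 0.00366). The superoxide dismutase gene Sod2 (21.0 FPKM in NC and 18.1 after APAP on average) and the peroxiredoxin genes Prdx3 (77.9 and 59.8) and Prdx6 (118 and 97.6) did not pass. The peroxide list had 1 rise with scaling to all reads. Txnip overlaps other genes.

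Promoters were read from the RefSeq table of 300-base windows on GRCm38.p6, from 250 bases before to 50 bases after the start of transcription, and searched on both strands. The core of the antioxidant response element, at which NRF2 acts, was taken as TGACNNNGC. It was in 12.4% of all 32851 promoters and in 17.5% of the 7191 tested genes that matched an entry. Of the matched genes that rose 21.9% had it, and of those that fell 17.6%. Of the 40 NRF2 targets tested 34 matched and 12 had it, among them Srxn1 and Txnrd1, and Gclm, Abcc2 and Nfe2l2 had it without rising. Srxn1 is shown as a gene that rose and carries it, with the core in capitals. There the core reads on the opposite strand and lies after the start of transcription, at bases 29 to 37. A match describes letters and does not show binding.
Srxn1, chr2:152105274-152105573, plus strand: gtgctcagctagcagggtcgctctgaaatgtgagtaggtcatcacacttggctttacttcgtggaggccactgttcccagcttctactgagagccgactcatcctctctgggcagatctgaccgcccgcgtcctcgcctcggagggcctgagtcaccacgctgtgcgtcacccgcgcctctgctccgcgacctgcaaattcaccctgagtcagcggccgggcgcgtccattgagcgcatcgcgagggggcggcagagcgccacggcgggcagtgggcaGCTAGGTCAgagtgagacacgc

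Immediate-early genes, which cells switch on within minutes of a signal without making new protein, rose almost as a whole list. Of 31 listed 27 were tested and 25 rose, with a median log2 fold change of 3.16, against -0.0043 over all genes tested, and the remaining 2 were not called. The list medians relative to the NC mean were 2.75, 3.49 and 3.48 in APAP 1, 2 and 3. Btg2, which halts the cell cycle, stood at 3.45, 3.01 and 2.39 FPKM in NC and 136, 424 and 297 after APAP (log2 fold change 6.04, SE 0.37, adjusted p = 8.04e-05). Maff, a small MAF factor that pairs with NRF2 and its relatives, stood at 0.924, 1.36 and 0.874 FPKM in NC and 86.6, 242 and 192 after APAP (log2 fold change 6.29, SE 0.35, adjusted p = 5.11e-05). In both every APAP liver lay above every NC liver, with APAP 2 highest. With an NC mean under 1 FPKM 10 of 10 members rose, and 15 of 17 others.

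Junb, an AP-1 subunit, stood at 6.93, 4.88 and 7.68 FPKM in NC and 93.5, 249 and 232 after APAP (log2 fold change 4.58, SE 0.36, adjusted p = 0.000224), and Jund, which is present in resting cells, rose less (2.20). Ier2 (4.05), Klf6 (3.70) and Zfp36 (3.59), whose product speeds the decay of cytokine mRNA, rose as well. Myc stood at 6.97, 5.43 and 1.33 FPKM in NC and 27.5, 57.9 and 43.2 after APAP (log2 fold change 3.10, SE 0.46, adjusted p = 0.00336), and every APAP liver lay above every NC liver, with APAP 2 highest and APAP 1 lowest. Junb, Jund and Zfp36 overlap other genes.

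Feedback inhibitors of the MAP kinases rose beside them. In that list 11 of 14 genes tested rose, with a median log2 fold change of 1.38. Dusp6, a phosphatase of ERK in the cytoplasm, rose (3.33). Dusp1, a nuclear phosphatase of JNK and p38, stood at 8.76, 16.9 and 22.1 FPKM in NC and 115, 156 and 141 after APAP (log2 fold change 3.11, SE 0.30, adjusted p = 0.000548). In both every APAP liver lay above every NC liver. The nuclear phosphatase genes Dusp4 (3.60) and Dusp5 (5.07) rose too, and Dusp16, which acts on JNK, passed the adjusted p (0.0225) but not the fold change (0.84). Of 5 members with an NC mean under 1 FPKM 5 rose, and of 9 others 6. Dusp16 was called without APAP 3 (log2 fold change 1.02). Dusp1 overlaps other genes.

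Of the genes of the JNK cascade itself 18 were tested and 3 rose, with a median log2 fold change of 0.37 (0.16 scaled). Map3k6 (1.59), Map3k8 (1.51) and Map3k5 (1.10), kinases at the top of the cascade, were these 3. Mapk8, which encodes JNK1, stood at 1.63, 1.48 and 1.33 FPKM in NC and 2.30, 2.82 and 2.46 after APAP. Sh3bp5, the mitochondrial protein Sab to which JNK binds, stood at 14.4, 16.5 and 12.9 FPKM in NC and 10.6, 5.94 and 8.06 after APAP. These and Map2k4, a kinase of JNK, passed the adjusted p (0.0193, 0.0244 and 0.0482) and not the fold change (0.51, -0.78 and 0.50). With an NC mean under 1 FPKM 2 of 4 members rose, and 1 of 14 others. The JNK list had 5 rises with a pseudocount of 0.1 or under voom. Sh3bp5 was called with scaling to all reads (log2 fold change -1.02). For Map3k5, the call ended without NC 2 or NC 3 (adjusted p = 0.0685 and 0.0575) and with scaling to all reads or without APAP 2 (log2 fold change 0.88 and 0.80). When all genes above 0 were tested, Map3k5 lost its call (adjusted p = 0.102, lowest 0.00586). Sh3bp5 overlaps other genes.

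The CRE, at which CREB and ATF factors act, was searched as TGACGTCA, and the AP-1 site as TGANTCA. CRE letters were in 1.79% of all promoters and in 3.64% of the tested genes matched, 7.10% of those that rose and 1.51% of those that fell. AP-1 letters were in 7.81% of all promoters, 6.22% of the tested genes, 10.1% of those that rose and 3.52% of those that fell. Among the 20 immediate-early genes matched, Btg2 and Maff had the CRE, and 1 had the AP-1 site, Csrnp1, a gene named after its values were seen. The promoter of Btg2 is shown as a gene of this list with the CRE, which is in capitals.
Btg2, chr1:134079106-134079405, minus strand: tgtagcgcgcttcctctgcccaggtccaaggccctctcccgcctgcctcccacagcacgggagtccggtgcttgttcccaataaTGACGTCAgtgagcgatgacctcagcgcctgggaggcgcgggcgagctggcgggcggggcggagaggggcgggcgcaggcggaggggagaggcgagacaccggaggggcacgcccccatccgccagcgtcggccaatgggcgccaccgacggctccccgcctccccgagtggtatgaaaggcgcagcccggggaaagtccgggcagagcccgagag

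In the integrated stress response, phosphorylation of eIF2α favours translation of ATF4. Its list and that of the chaperones of the endoplasmic reticulum (ER) had medians of opposite sign, and no test compared the 2. Of the integrated stress response list 13 of 25 genes tested rose, with a median log2 fold change of 1.03. Of the ER list, 1 of 31 genes tested rose and 5 fell, and 26 of 31 had a negative log2 fold change, with a median log2 fold change of -0.45 (-0.69 scaled). Of 5 members of the first list with an NC mean under 1 FPKM 5 rose, and of 20 others 8. The ER list had 2 falls over all genes above 0.

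Ddit3, the factor CHOP, stood at 4.13, 4.59 and 4.68 FPKM in NC and 31.8, 135 and 84.4 after APAP (log2 fold change 3.73, SE 0.45, adjusted p = 0.00142). Chac1, which degrades glutathione, stood at 0.439, 0.247 and 0.355 FPKM in NC and 6.38, 26.0 and 24.8 after APAP (log2 fold change 3.68, SE 0.46, adjusted p = 0.00162). In both every APAP liver lay above every NC liver, with APAP 1 lowest of its group. Ppp1r15a, which brings the phosphatase back to eIF2α, rose by 3.11 and Sesn2, an inhibitor of mTORC1, by 2.64 on the log2 scale. Atf4 itself stood at 39.3, 39.3 and 41.4 FPKM in NC and 78.4, 128 and 139 after APAP (log2 fold change 1.46, SE 0.21, adjusted p = 0.00307). The amino acid transporter gene Slc38a2 (2.52) rose too. Atf5, another factor translated in this response, passed the adjusted p (0.00326) but not the fold change (0.89). Ddit3, Ppp1r15a and Atf5 overlap other genes.

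In the ER, Sdf2l1, a partner of BiP, stood at 61.6, 68.2 and 28.0 FPKM in NC and 9.69, 8.23 and 11.2 after APAP (log2 fold change -2.23, SE 0.32, adjusted p = 0.00266), and every APAP liver lay below every NC liver, with APAP 2 lowest and APAP 3 highest. Pdia4, a disulfide isomerase, stood at 97.4, 94.6 and 62.5 FPKM in NC and 42.6, 31.1 and 36.4 after APAP (log2 fold change -1.17, SE 0.20, adjusted p = 0.00602), also with the groups apart. Creld2 (-1.76) and Manf (-1.27), secreted proteins that the unfolded protein response induces, fell too. Calr, calreticulin, passed the adjusted p (0.0218) but not the fold change (-0.54). Herpud1, of ER-associated degradation and also a target of ATF4, was the single member to rise, from 194 ± 29.6 to 401 ± 10.6 FPKM (SD). Herpud1 was no longer called after quantile normalization, with scaling to all reads or without NC 3 (log2 fold change 0.74, 0.80 and 0.93). With all genes above 0 tested, the calls of Creld2 and Manf ended (adjusted p = 0.0517 and 0.0675, lowest 0.00147 and 0.00380). Pdia4 and Manf overlap other genes.

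TGATGNAA, the letters at which ATF4 pairs with C/EBP factors, was in 3.97% of all promoters and 2.56% of the tested genes matched. It was in 6.28% of those that rose and 2.51% of those that fell. Of 22 matched genes of the integrated stress response, 4 had it, Chac1 and Trib3 among them. The ER stress element, CCAAT and CCACG with 9 bases between them, was in 0.119% of all promoters, 0.181% of the tested genes and 8 of 23 matched genes of the ER list, Creld2 among them. Chac1 is shown for the former and Creld2 for the latter, as genes that moved in opposite directions. Each motif is in capitals and in both reads on the opposite strand (for Creld2, the whole span is marked).
Chac1, chr2:119350992-119351291, plus strand: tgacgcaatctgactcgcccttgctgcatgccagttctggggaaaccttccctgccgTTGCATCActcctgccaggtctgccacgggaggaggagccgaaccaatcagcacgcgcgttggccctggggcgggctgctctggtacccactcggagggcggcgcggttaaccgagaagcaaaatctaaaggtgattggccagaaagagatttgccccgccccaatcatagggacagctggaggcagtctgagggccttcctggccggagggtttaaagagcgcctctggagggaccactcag
Creld2, chr15:88819396-88819695, plus strand: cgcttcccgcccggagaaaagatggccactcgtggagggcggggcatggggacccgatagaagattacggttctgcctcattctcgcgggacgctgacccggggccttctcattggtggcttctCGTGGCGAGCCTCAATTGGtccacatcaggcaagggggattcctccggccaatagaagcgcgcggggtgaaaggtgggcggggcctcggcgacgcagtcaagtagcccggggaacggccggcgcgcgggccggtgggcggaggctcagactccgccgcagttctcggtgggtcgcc

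Cytosolic heat shock genes did not move as a list. Of it, 5 of 37 genes tested rose and 2 fell, with a median log2 fold change of 0.04 (-0.21 scaled, -0.06 quantile, -0.05 to 0.08 less 1). Dnajb1, an HSP40 that works with HSP70, stood at 9.58, 8.36 and 5.91 FPKM in NC and 19.1, 65.8 and 38.2 after APAP (log2 fold change 2.09, SE 0.40, adjusted p = 0.00870). Hsph1, HSP110, passed the adjusted p with a negative log2 fold change of -0.91. The HSF1 element, GAA, TTC and GAA each set apart by 2 bases, was in 0.603% of all promoters and 4 of 29 matched genes of the list, of which Chordc1 fell (-1.05). Heat shock genes had 3 rises over all genes above 0, 4 falls with scaling to all reads and 1 fall without NC 2. Hsph1 was called with a pseudocount of 0.1, with scaling to all reads, under voom or without APAP 2 or NC 3 (log2 fold change -1.03, -1.14, -1.04, -1.03 and -1.19). Over all genes above 0, no call was made for Dnajb1 (adjusted p = 0.0718, lowest 0.00120).

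Targets of p53 and other genes of growth arrest rose in part. Of that list 11 of 25 genes tested rose, with a median log2 fold change of 0.81. Cdkn1a, the inhibitor p21 of cyclin-dependent kinases, stood at 0.186, 0.488 and 0.229 FPKM in NC and 44.7, 83.3 and 60.9 after APAP (log2 fold change 5.58, SE 0.22, adjusted p = 1.41e-05). Mdm2, which degrades p53, rose (2.63). Gadd45a stood at 1.33, 2.07 and 1.35 FPKM in NC and 40.1, 83.7 and 80.0 after APAP (log2 fold change 4.68, SE 0.28, adjusted p = 6.69e-05), and its relatives Gadd45b (4.62) and Gadd45g (2.50) rose too. In each of these 5 genes every APAP liver lay above every NC liver. Plk3, a polo-like kinase, stood at 20.03, 12.7 and 9.32 FPKM in NC and 258, 553 and 399 after APAP (log2 fold change 4.74, SE 0.33, adjusted p = 0.000139). Trp53, which encodes p53, and Ccng1, a cyclin that p53 induces, had negative log2 fold changes (-0.43 and -0.50), short of the threshold. Of 38 listed cell cycle genes 13 were tested, and Ccnd1, cyclin D1, was the single one called, at 5.31, 3.56 and 3.13 FPKM in NC and 1.60, 0.617 and 0.837 after APAP (log2 fold change -1.31, SE 0.22, adjusted p = 0.00559). The cell cycle list had a median log2 fold change of 0.24 (0.10 scaled). It had 2 falls with scaling to all reads or under voom and 1 rise without APAP 1. Of the p53 list, 2 of 3 members with an NC mean under 1 FPKM rose, and 9 of 22 others. Cdkn1a, Gadd45a, Plk3 and Ccnd1 overlap other genes.

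Among genes of cell death, 5 of 30 tested rose, with a median log2 fold change of -0.03 (-0.25 scaled, -0.06 quantile, -0.08 to 0.06 less 1). Tnfrsf12a, the receptor of TWEAK, stood at 4.28, 5.09 and 4.12 FPKM in NC and 39.6, 146 and 109.9 after APAP (log2 fold change 3.99, SE 0.42, adjusted p = 0.000822), and every APAP liver lay above every NC liver, with APAP 2 highest and APAP 1 lowest. The survival genes Bcl2l1 (2.15) and Mcl1 (1.55) and the death genes Bbc3 (1.97) and Bcl2l11 (1.17) rose together. Bcl2l1 stood at 6.72, 5.60 and 5.38 FPKM in NC and 17.3, 44.0 and 33.2 after APAP and Bbc3, the BH3 protein PUMA, at 2.17, 2.26 and 2.84 FPKM in NC and 9.86, 16.0 and 12.02 after APAP. Both kept the groups apart. Acsl4 (-0.78), which builds the lipids oxidized in ferroptosis, and Bid (-0.73) passed the adjusted p but not the fold change. Of 44 listed genes, 14 were too low to be tested, Ripk3 and Apaf1 among them. The cell death list had 2 falls with scaling to all reads. Acsl4 was called with scaling to all reads (log2 fold change -1.02). Bid overlaps other genes.

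Metallothioneins, small proteins that bind zinc and copper, were among the largest rises. In the list of metallothioneins and glucocorticoid targets, 7 of 14 genes tested rose and 1 fell, with a median log2 fold change of 1.04. Mt1 stood at 35.5, 55.6 and 71.9 FPKM in NC and 911, 2818 and 2521 after APAP (log2 fold change 5.13, SE 0.44, adjusted p = 0.000324). Mt2 stood at 0, 0.0983 and 0.494 FPKM in NC and 33.9, 52.0 and 48.0 after APAP (log2 fold change 5.25, SE 0.21, adjusted p = 1.41e-05). In both, APAP 2 was highest and every APAP liver lay above every NC liver. Of the 14, 12 had a positive log2 fold change. Zbtb16, a zinc finger factor, stood at 0.318, 0.285 and 0.220 FPKM in NC and 4.28, 5.47 and 2.55 after APAP and rose, Tsc22d3, the leucine zipper GILZ, stood at 35.9, 33.0 and 35.3 FPKM in NC and 12.8, 14.96 and 14.4 after APAP and fell (log2 fold change -1.25, SE 0.12, adjusted p = 0.000448), and Fkbp5 did not pass (9.42 and 12.99 FPKM on average in NC and APAP livers). Of 2 members with an NC mean under 1 FPKM 2 rose, and of 12 others 5. Mt2 overlaps other genes.

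Clock genes split into a rising and a falling set. Of 21 tested, 8 rose and 7 fell, with a median log2 fold change of 0.51 (0.28 scaled). Nr1d1, the repressor REV-ERBα, stood at 6.17, 5.83 and 5.19 FPKM in NC and 75.5, 108 and 63.8 after APAP (log2 fold change 3.60, SE 0.20, adjusted p = 5.11e-05). Nfil3, a repressor that opposes DBP at its sites, rose (2.93). Dbp, an activator of clock output, stood at 30.7, 25.7 and 28.1 FPKM in NC and 5.21, 5.93 and 6.09 after APAP (log2 fold change -2.11, SE 0.12, adjusted p = 6.20e-05). None of the 3 overlapped between groups, as held for 759 of the 766 called genes. Per3 (-1.65), Per2 (-1.51), the DBP relatives Hlf (-1.38) and Tef (-1.14) and the deubiquitinase gene Usp2 (-2.28) fell. Clock stood at 2.15, 2.03 and 1.02 FPKM in NC and 3.86, 2.40 and 1.74 after APAP and did not pass. The hour at which livers were taken is not given for either group, so time of day was not tested. Clock genes had 5 rises without NC 3, after quantile normalization or over all genes above 0, 4 rises without APAP 2 and 3 rises with scaling to all reads. Nr1d1, Dbp, Tef and Usp2 overlap other genes.

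Of genes of fatty acid oxidation and PPARα targets, 9 of 49 tested rose, with a median log2 fold change of 0.18 (-0.08 scaled, -0.03 quantile, 0.09 to 0.27 less 1). Hilpda, an inhibitor of lipolysis on lipid droplets, stood at 0.815, 1.21 and 1.47 FPKM in NC and 52.7, 212 and 189 after APAP (log2 fold change 5.92, SE 0.48, adjusted p = 0.000250). Pdk4, which shuts pyruvate out of oxidation, rose (4.96). Both were higher in every APAP liver. Cidec, which fuses droplets, rose by 2.88 on the log2 scale. Cpt1a, which lets fatty acids into mitochondria, stood at 75.9, 77.9 and 65.3 FPKM in NC and 132, 96.0 and 65.4 after APAP and Ppara, which encodes PPARα, at 20.2, 18.3 and 6.62 FPKM in NC and 13.3, 7.89 and 4.23 after APAP, and neither passed. With an NC mean under 1 FPKM 3 of 4 members rose, and 6 of 45 others.

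Of the fatty acid synthesis list, 1 of 27 genes tested rose and 7 fell, with a median log2 fold change of -0.33 (-0.58 scaled, -0.48 to -0.19 less 1). Srebf1, the factor SREBP-1 that drives this pathway, stood at 87.3, 91.8 and 98.6 FPKM in NC and 27.4, 31.5 and 24.8 after APAP (log2 fold change -1.70, SE 0.13, adjusted p = 0.000195). Thrsp, a regulator of lipogenesis, stood at 181, 229 and 314 FPKM in NC and 32.5, 49.8 and 85.8 after APAP (log2 fold change -2.16, SE 0.35, adjusted p = 0.00440). Each had its APAP livers below its NC livers. Elovl6 (-1.87), Pklr (-1.24) and Mid1ip1 (-3.05), an activator of acetyl-CoA carboxylase, fell, and the elongase gene Elovl5 (1.26) rose. The synthesis list had 2 rises without APAP 2 or with the replicate block. Srebf1, Elovl6, Pklr and Mid1ip1 overlap other genes.

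Of cholesterol genes, 2 of 29 genes tested rose and 8 fell, with a median log2 fold change of -0.52. The list median relative to the NC mean was 0.31, 0.22 and -0.52 in the NC livers and -0.54, -0.63 and -0.34 in the APAP livers, so NC 3 lay among the APAP livers. NC 3 is also the library with another date in its title, and the part of that date was not tested. Idi1, isopentenyl diphosphate isomerase, stood at 19.9, 19.4 and 7.61 FPKM in NC and 2.28, 2.90 and 5.43 after APAP, and Insig2, which holds SREBP factors in the ER, at 22.8, 16.1 and 27.7 FPKM in NC and 124, 90.6 and 91.1 after APAP (log2 fold change 2.16, SE 0.22, adjusted p = 0.000635). Cholesterol genes had 1 rise with scaling to all reads, 4 falls without APAP 1, 2 falls without APAP 2 or NC 1, 1 fall without NC 2 and 0 falls over all genes above 0. A test of all genes above 0 ended the call of Idi1 (adjusted p = 0.0882, lowest 0.00388). Idi1 overlaps other genes.

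Glucose genes rose at several points. In the list of gluconeogenesis, glycogen and insulin signalling, 10 of 33 genes tested rose and 1 fell, with a median log2 fold change of 0.23 (-0.03 scaled, 0.07 quantile). G6pc, glucose-6-phosphatase, stood at 72.2, 50.1 and 142 FPKM in NC and 290.1, 269 and 345 after APAP (log2 fold change 1.89, SE 0.34, adjusted p = 0.00694). Ppp1r3b, which brings phosphatase 1 to glycogen, stood at 79.1, 99.5 and 58.1 FPKM in NC and 18.0, 13.9 and 16.8 after APAP (log2 fold change -2.19, SE 0.21, adjusted p = 0.000469). Both kept their groups apart. Ppargc1a, the coactivator PGC-1α, rose from 0.545 ± 0.0416 to 3.14 ± 1.15 FPKM (SD), and Foxo3 (1.85) and Sik1 (1.81), a kinase induced by cyclic AMP, rose. Pck1, whose product commits carbon to glucose, stood at 683, 282 and 457 FPKM in NC and 1043, 1089 and 998 after APAP (log2 fold change 1.23, SE 0.29, adjusted p = 0.0188). Of 3 members with an NC mean under 1 FPKM 3 rose, and of 30 others 7. The glucose list had 6 rises over all genes above 0. Pck1 lost its call without APAP 2 (adjusted p = 0.0622) and after quantile normalization, with scaling to all reads or without NC 2 (log2 fold change 0.92, 0.97 and 0.90). The calls of G6pc and Pck1 ended when all genes above 0 were tested (adjusted p = 0.0612 and 0.106, lowest 0.00170 and 0.00672).

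Of hypoxia and glycolysis genes, 8 of 30 genes tested rose and 1 fell, with a median log2 fold change of 0.43 (0.19 scaled). Slc2a1, the glucose transporter GLUT1, stood at 3.69, 4.88 and 2.54 FPKM in NC and 9.87, 28.4 and 20.8 after APAP (log2 fold change 2.05, SE 0.36, adjusted p = 0.00608). Hif1a rose (1.28). Pkm, the pyruvate kinase of dividing and non-parenchymal cells, rose from 1.94 ± 0.489 to 5.91 ± 1.61 FPKM (SD), and Pfkfb1, the liver enzyme that sets fructose-2,6-bisphosphate, fell (-1.72). Ldha passed the adjusted p (0.0455) with a log2 fold change of 0.40. With an NC mean under 1 FPKM 2 of 3 members rose, and 6 of 27 others. The hypoxia list had 2 falls without APAP 1 or NC 3, with a pseudocount of 0.1, with scaling to all reads or under voom. When all genes above 0 were tested, Slc2a1 lost its call (adjusted p = 0.0584, lowest 0.000806). Slc2a1, Hif1a, Pkm and Pfkfb1 overlap other genes.

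Of bile acid genes, 3 of 27 tested fell, with a median log2 fold change of -0.09 (-0.34 scaled, -0.25 quantile, -0.18 to 0.03 less 1). Cyp7a1, which starts bile acid synthesis from cholesterol, stood at 73.2, 61.9 and 51.5 FPKM in NC and 1.34, 0.251 and 1.80 after APAP (log2 fold change -4.96, SE 0.29, adjusted p = 6.47e-05). Its APAP livers were all under its NC livers. Nr1h4, the bile acid receptor FXR, stood at 60.9, 58.4 and 68.8 FPKM in NC and 35.6, 24.0 and 33.7 after APAP and fell (log2 fold change -1.005, SE 0.17, adjusted p = 0.00535), and Nr0b2, the repressor SHP that FXR induces, did not pass (adjusted p = 0.0630). The uptake carrier gene Slc10a1 did not pass (adjusted p = 0.101), and Abcb11, the bile salt export pump, passed the adjusted p (0.0470) but not the fold change (0.54). Bile acid genes had 1 fall without APAP 2 or NC 3. Nr0b2 was called without NC 3 (adjusted p = 0.00810, highest 0.219). Nr1h4 lost its call without APAP 2 or NC 3 (log2 fold change -0.83 and -0.94). Abcb11 overlaps other genes.

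Among hepatocyte transcription factors and drug receptors, most genes were not called. Of 39 tested, 2 rose and 7 fell, against 5.09% and 2.80% of all genes tested. Of the 39, 29 had a negative log2 fold change, with a median log2 fold change of -0.43. Prox1, a factor of hepatocyte fate, fell (-1.50). Onecut1, HNF6, stood at 4.30, 5.95 and 1.48 FPKM in NC and 0.489, 0.216 and 0.217 after APAP (log2 fold change -1.79, SE 0.35, adjusted p = 0.00900). Groups did not overlap in either. Ahr, the dioxin receptor, fell (-1.42), and Cebpd, induced in the acute phase, rose from 3.41 ± 0.353 to 14.4 ± 4.35 FPKM (SD). Hnf4a stood at 138, 129 and 82.5 FPKM in NC and 176, 179 and 136 after APAP and Cebpa at 292, 356 and 254 FPKM in NC and 205, 249 and 253 after APAP, and neither passed. The drug receptor genes Nr1i2 and Nr1i3, PXR and CAR, passed the adjusted p (0.0453 and 0.0192) with log2 fold changes of 0.48 and -0.70. The transcription factors had 1 rise over all genes above 0 and 4 falls over all genes above 0. With all genes above 0 tested, the call of Onecut1 ended (adjusted p = 0.0719, lowest 0.00130). Prox1, Onecut1, Ahr, Cebpd, Cebpa and Nr1i3 overlap other genes.

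Among hepatokines and growth factors, 9 of 28 genes tested rose and 4 fell, with a median log2 fold change of 0.35 (0.16 scaled). Gdf15, a stress hormone that acts on the hindbrain, stood at 1.62, 3.50 and 1.41 FPKM in NC and 303, 545 and 446 after APAP (log2 fold change 7.10, SE 0.29, adjusted p = 1.50e-05). Fgf21, a fasting hormone, rose (3.87). Both were above the NC range in every APAP liver. Angptl4 (3.41), an inhibitor of lipoprotein lipase, the EGF receptor ligands Hbegf (3.72) and Areg (2.96) and the activin subunit Inhbb (1.90) rose. Inhbe, an activin subunit of hepatocytes, fell (-2.27). Igf1 did not pass (adjusted p = 0.608). Of 6 members with an NC mean under 1 FPKM 6 rose, and of 22 others 3. The hepatokine list had 1 fall over all genes above 0.

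NF-κB targets, cytokines and chemokines rose in part, most from low levels. Of 51 listed, 30 were tested and 13 rose, with a median log2 fold change of 0.84, and Tnf, Il6 and Cxcl2 were too low to be tested. Cxcl1, a chemokine for neutrophils, stood at 1.28, 0.833 and 0.837 FPKM in NC and 6.04, 43.7 and 38.9 after APAP (log2 fold change 3.56, SE 0.63, adjusted p = 0.00663). Cxcl10, a chemokine for T cells, rose (2.93). Both had every APAP liver above every NC liver. Ccl2, a chemokine for monocytes, stood at 0.211, 0.102 and 0.357 FPKM in NC and 1.77, 1.63 and 4.05 after APAP. These values stand beside the neutrophil and Kupffer cell sums above, and the part of those cells was not tested. With an NC mean under 1 FPKM 7 of 10 members rose, and 6 of 20 others. The NF-κB list had 7 rises over all genes above 0. Testing all genes above 0 ended the calls of Cxcl1 and Ccl2 (adjusted p = 0.0646 and 0.0524, lowest 7.99e-06 and 0.00261). Cxcl10 overlaps other genes.

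The κB element, searched by that name in its common form of 10 letters, was in 4.51% of all promoters, 6.12% of the tested genes matched and 9 of 23 matched genes of the NF-κB list.

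Of IL-6 family genes 9 of 23 tested rose, with a median log2 fold change of 0.35 (0.12 scaled, 0.22 to 0.52 less 1). Socs3, the feedback inhibitor of this pathway, stood at 3.77, 2.86 and 1.69 FPKM in NC and 15.2, 18.0 and 39.9 after APAP (log2 fold change 2.66, SE 0.36, adjusted p = 0.00225), with the groups apart. The kinase genes Pim1 (1.98) and Pim3 (2.67) rose too. Acute-phase proteins, which IL-6 induces in hepatocytes, were mostly not called. Of 33 genes tested 3 rose and 1 fell, against 5.09% and 2.80% of all genes tested. The acute-phase list had a median log2 fold change of 0.31 (0.05 scaled, 0.06 quantile). Orm1, orosomucoid 1, stood at 659, 573 and 887 FPKM in NC and 841, 918 and 985 after APAP, with overlapping groups. Lcn2, lipocalin 2, stood at 2.54, 2.03 and 2.35 FPKM in NC and 4.43, 15.1 and 9.67 after APAP and rose. Hamp, the iron hormone hepcidin, stood at 1743, 1378 and 1789 FPKM in NC and 881, 566 and 1136 after APAP and passed the adjusted p with a log2 fold change of -0.97, and Saa4 fell (-1.57). Acute-phase genes had 1 rise without NC 2 and 2 falls without APAP 1 or APAP 3, after quantile normalization or with scaling to all reads. Hamp was called after quantile normalization, with scaling to all reads or without APAP 1 or APAP 3 (log2 fold change -1.32, -1.23, -1.02 and -1.20). Lcn2 lost its call without NC 2 (adjusted p = 0.0556). Over all genes above 0, no call was made for Lcn2 (adjusted p = 0.0981, lowest 0.000786). Pim1 overlaps other genes.

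Interferon-induced genes did not move together: 2 of 40 genes tested rose and 1 fell, against 5.09% and 2.80% of all genes tested. Their median log2 fold change was -0.07 (-0.29 scaled, -0.15 quantile, -0.12 to 0.02 less 1). Ifit2 (1.37) rose and Isg15 did not pass (adjusted p = 0.484). Of MHC genes 4 of 16 tested rose, with a median log2 fold change of 0.61 (0.36 scaled, 0.38 quantile). These 4 were H2-Aa (1.32), H2-Ab1 (1.33), H2-Eb1 (1.14) and Cd74 (1.33), the class II genes of antigen-presenting cells. H2-Aa rose from 6.41 ± 1.89 to 17.5 ± 4.86 FPKM (SD). Interferon-induced genes had 5 rises under voom, 4 rises with a pseudocount of 0.1, 1 rise without NC 1, with scaling to all reads or over all genes above 0, 5 falls with scaling to all reads, 3 falls without APAP 1, with a pseudocount of 0.1 or under voom, 2 falls without APAP 2 and 0 falls over all genes above 0. MHC genes had 1 rise without NC 1 and 0 rises over all genes above 0. For H2-Ab1, the call ended without NC 1 (log2 fold change 0.98). H2-Eb1 lost its call with scaling to all reads or without NC 1 (log2 fold change 0.90 and 0.90). Cd74 was no longer called without APAP 3, NC 1 or NC 2 (adjusted p = 0.0586, 0.0620 and 0.0627). A test of all genes above 0 ended the calls of H2-Aa, H2-Ab1, H2-Eb1 and Cd74 (adjusted p = 0.0644, 0.0994, 0.0882 and 0.120, lowest 0.00264, 0.00819, 0.00939 and 0.0105). Cd74 overlaps other genes.

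Of 27 coagulation genes tested 4 rose, with a median log2 fold change of 0.22 (-0.04 scaled, -0.02 quantile, 0.12 to 0.28 less 1). Thbs1, thrombospondin 1, stood at 0.0395, 0.143 and 0.0670 FPKM in NC and 6.11, 9.33 and 11.8 after APAP (log2 fold change 3.18, SE 0.21, adjusted p = 0.000118). Thbd, thrombomodulin, rose (2.67). Both were higher in every APAP liver than in any NC liver. Serpinc1, antithrombin, stood at 223, 217 and 206 FPKM in NC and 296, 271 and 268 after APAP and did not pass (adjusted p = 0.0541). Thbs1 is also stored in platelets, whose markers rose as described, and their part in it was not tested. Of 4 members with an NC mean under 1 FPKM 4 rose, and of 23 others 0. Thbs1 and Serpinc1 overlap other genes.

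Of 34 genes of albumin, apolipoproteins and carriers, 1 rose and 1 fell, against 5.09% and 2.80% of all genes tested. Their median log2 fold change was 0.34 (0.08 scaled, 0.01 quantile). Apoa4, an apolipoprotein raised by fasting and by fat, stood at 15.6, 14.7 and 16.6 FPKM in NC and 73.8, 236 and 129 after APAP (log2 fold change 2.99, SE 0.36, adjusted p = 0.00149), and every APAP liver lay above every NC liver, with APAP 2 highest and APAP 1 lowest. No complement gene of 28 tested was called (11 higher and 1 lower at an unadjusted p under 0.05 with limma, 1 higher and 0 lower under voom). The list had a median log2 fold change of 0.41 (0.15 scaled, 0.10 quantile), and C9 stood at 241, 184 and 323 FPKM in NC and 352, 324 and 312 after APAP. The carrier list had 2 rises without APAP 1 or NC 3 and 0 falls without APAP 2, NC 1 or NC 2 or over all genes above 0. Complement genes had 4 rises without NC 3, 3 rises without APAP 2 and 2 rises with the replicate block. Apoa4 overlaps other genes.

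In the urea cycle and amino acid catabolism, 2 of 53 genes tested rose and 3 fell, against 5.09% and 2.80% of all genes tested. The median log2 fold change was -0.04 (-0.30 scaled, -0.21 quantile, -0.10 to 0.03 less 1). The falls were those of Oat and Glul, described with the pericentral genes, and of Prodh (-1.02), proline oxidase. The rises were those of Sds, described with the periportal genes, and Got1 (1.01). In iron and heme genes 1 of 33 genes tested rose and 2 fell, beside the same 5.09% and 2.80%. Their median log2 fold change was -0.11 (-0.36 scaled, -0.20 quantile, -0.18 to -0.09 less 1). Alas1, which limits heme synthesis in the liver, stood at 222, 198 and 196 FPKM in NC and 34.2, 51.0 and 50.9 after APAP (log2 fold change -2.17, SE 0.18, adjusted p = 0.000251). Every APAP liver lay below every NC liver, with APAP 1 lowest and APAP 2 highest. Slc40a1, the iron exporter ferroportin, passed the adjusted p with a log2 fold change of -0.71. The urea cycle and amino acid list had 4 rises without APAP 1, 1 rise without NC 1 or NC 3, after quantile normalization or with scaling to all reads and 0 rises without APAP 2, APAP 3 or NC 2 or over all genes above 0. Iron and heme genes had 2 rises without APAP 1 and 1 fall over all genes above 0. Prodh lost its call without NC 1 (log2 fold change -0.93). Sds was no longer called without APAP 2, APAP 3, NC 1, NC 2 or NC 3 (adjusted p = 0.0779, 0.0847, 0.0696, 0.0968 and 0.0740). For Got1, the call ended without APAP 2, APAP 3, NC 1 or NC 2 (adjusted p = 0.0558, 0.0502, 0.0585 and 0.0652) and after quantile normalization, with scaling to all reads (log2 fold change 0.76 and 0.75). The calls of Sds and Got1 ended when all genes above 0 were tested (adjusted p = 0.150 and 0.0899, lowest 0.000638 and 0.00187). Glul, Sds and Alas1 overlap other genes.

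Genes of protein synthesis, protein breakdown and respiration showed few calls. Of 84 cytosolic ribosomal protein genes, none was called (14 higher and 1 lower at an unadjusted p under 0.05 with limma, 0 higher and 0 lower under voom), with a median log2 fold change of 0.28 (0.03 scaled, 0.08 quantile, 0.09 to 0.42 less 1) and log2 fold changes from -0.64 to 0.98. Their medians relative to the NC mean were -0.05, 0.24 and 0.65 in APAP 1, 2 and 3. Of 58 ribosome biogenesis genes Rcl1 alone rose (1.01), and the list had 2 rises without APAP 1 and 1 fall with scaling to all reads. Of 20 cytosolic tRNA synthetases none was called (4 higher and 6 lower at an unadjusted p under 0.05 with limma, 0 higher and 0 lower under voom), with a median log2 fold change of 0.03 (-0.20 scaled, -0.00086 quantile, -0.02 to 0.05 less 1), and of 38 proteasome subunits none (2 higher and 4 lower at an unadjusted p under 0.05 with limma, 0 higher and 0 lower under voom), with a median log2 fold change of -0.07 (-0.33 scaled, -0.15 quantile, -0.13 to 0.00012 less 1). In the autophagy and lysosome list 4 of 40 rose, with a median log2 fold change of 0.12 (-0.13 scaled, 0.06 quantile, 0.10 to 0.19 less 1). Ulk1 (1.45), the kinase that starts autophagy, rose, and Tfeb, a factor of lysosomal genes, did not pass (adjusted p = 0.313). Rcl1 was no longer called after quantile normalization, with scaling to all reads or without APAP 2 or NC 2 (log2 fold change 0.86, 0.76, 0.97 and 0.88).

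No nuclear gene of the respiratory chain of 79 tested was called (0 higher and 1 lower at an unadjusted p under 0.05 with limma, 0 higher and 0 lower under voom), with a median log2 fold change of 0.12 (-0.13 scaled, -0.04 quantile, -0.00062 to 0.24 less 1). No mRNA of the 13 that mitochondrial DNA encodes was called either (3 higher and 0 lower at an unadjusted p under 0.05 with limma, 0 higher and 0 lower under voom), with a median log2 fold change of 0.36 (0.11 scaled, -0.04 quantile). Of its other genes, 8 of 17 tRNA genes tested and 1 of 2 rRNA genes rose, mt-Rnr2 (1.40) among them, against 5.09% of all genes tested. The tRNA genes are short, so each read is worth more FPKM there, and alternatives of these counts are not given. The tRNA gene mt-Te stood at 387, 222 and 243 FPKM in NC and 1249, 716 and 407 after APAP, widely spread among the APAP livers. Reads on mitochondrial genes made up 4.98% to 6.03% of all reads in the NC livers and 4.92% to 6.82% in the APAP livers. Of 77 mitochondrial ribosomal proteins none was called by both thresholds (1 higher and 29 lower at an unadjusted p under 0.05 with limma, 0 higher and 1 lower under voom). Of the 77, 20 passed the adjusted p with a negative log2 fold change, as did 1271 of all 9699 genes tested. The list had a median log2 fold change of -0.27 (-0.50 scaled), with -0.41, -0.31 and -0.07 in APAP 1, 2 and 3. Among mitochondrial chaperones, proteases and dynamics genes, with a median log2 fold change of -0.05 (-0.30 scaled, -0.14 quantile, -0.08 to 0.0047 less 1), 3 of 40 rose, Slc25a25 (2.13) and Slc25a33 (1.93), carriers of ATP-Mg and of pyrimidine nucleotides, and Clpx (1.46), the unfoldase of the ClpXP protease. Mfn2, of mitochondrial fusion, and Ppif, cyclophilin D of the permeability pore, passed the adjusted p (0.0177 and 0.0135) but not the fold change (-0.92 and -0.54). The mRNAs of mitochondrial DNA had 1 rise without APAP 3 or NC 1 and 1 fall without NC 2 or after quantile normalization. Mitochondrial ribosomal proteins had 2 falls with scaling to all reads and 1 fall without APAP 3 or with a pseudocount of 0.1. The chaperone and dynamics list had 6 rises with a pseudocount of 0.1 or under voom and 2 falls with scaling to all reads. Mfn2 was called with scaling to all reads or without APAP 1 or NC 3 (log2 fold change -1.17, -1.14 and -1.05). Slc25a25, Slc25a33 and Ppif overlap other genes.

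Of cytoskeleton genes, 11 of 40 genes tested rose and 1 fell, with a median log2 fold change of 0.65. Krt8, of the keratin filaments of hepatocytes, stood at 97.2, 123 and 91.2 FPKM in NC and 242, 1158 and 718 after APAP (log2 fold change 2.50, SE 0.50, adjusted p = 0.0104). Myh9, non-muscle myosin, rose (1.59). Both kept the groups apart. Among RNAs held in the nucleus 3 of 7 tested rose, with a median log2 fold change of 0.79, and Neat1 stood at 3.60, 3.20 and 2.37 FPKM in NC and 0.449, 3.43 and 1.63 after APAP with overlapping groups. Cytoskeleton genes had 7 rises without APAP 3 or NC 1, 5 rises over all genes above 0 and 0 falls without NC 3. Nuclear RNAs had 5 rises without APAP 1 and 0 rises over all genes above 0. Neat1 was called without APAP 2 (adjusted p = 0.0462, highest 0.503). When all genes above 0 were tested, Krt8 lost its call (adjusted p = 0.0823, lowest 0.000265). Krt8 and Neat1 overlap other genes.

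**Figure D2:**
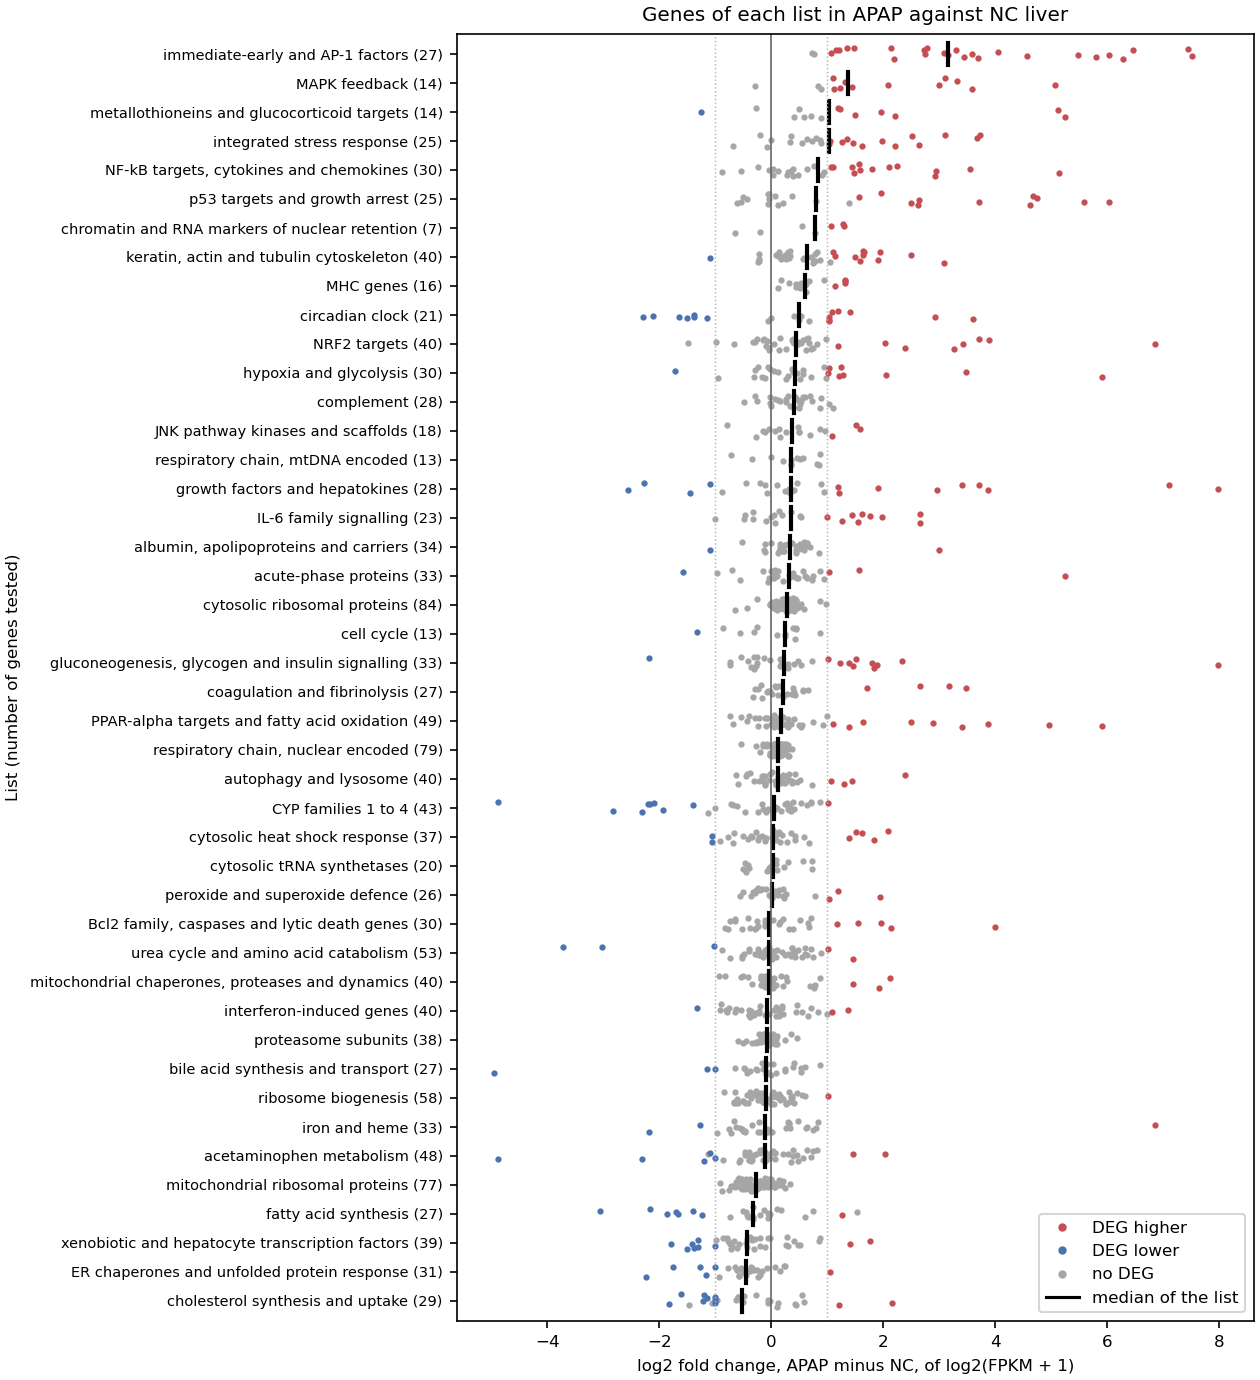
Log2 fold change of log2(FPKM + 1), APAP minus NC (horizontal axis), for each tested gene of each list (vertical axis, with the number of genes tested), where a point is a gene, red and blue points rose and fell, grey points were not called, and black bars are list medians. Cell type markers are left out. Of the lists drawn, the immediate-early list has the highest median, 3.16, and the cholesterol list the lowest, -0.52, and dotted lines mark the fold change threshold of 1.

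Among called genes with the groups apart, the largest gains after APAP in mean FPKM were those of Mt1, Igfbp1 and Fgg. Igfbp1, which binds insulin-like growth factors, stood at 2.95, 3.37 and 10.97 FPKM in NC and 1113, 1722 and 1716 after APAP. The largest losses among such genes were those of Cyp2e1, Cyp2a5 and Oat. Of such genes not named so far, the largest falls on the log2 scale were those of Nrep (-3.97), Mup17 (-3.89) and Nat8f5 (-3.15), whose alternatives are not given. Tsku (-2.94), a secreted protein of the liver, Aldh3a2 (-2.90), a fatty aldehyde dehydrogenase, and Clec2d (-2.56), a lectin, fell as well. Fgg lost its call after quantile normalization, with scaling to all reads or without APAP 3 or NC 2 (log2 fold change 0.75, 0.77, 0.97 and 0.99). With all genes above 0 tested, the calls of Cyp2e1 and Cyp2a5 ended (adjusted p = 0.103 and 0.0509, lowest 0.00169 and 0.000839). Fgg and Nat8f5 overlap other genes.

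**Figure D3:**
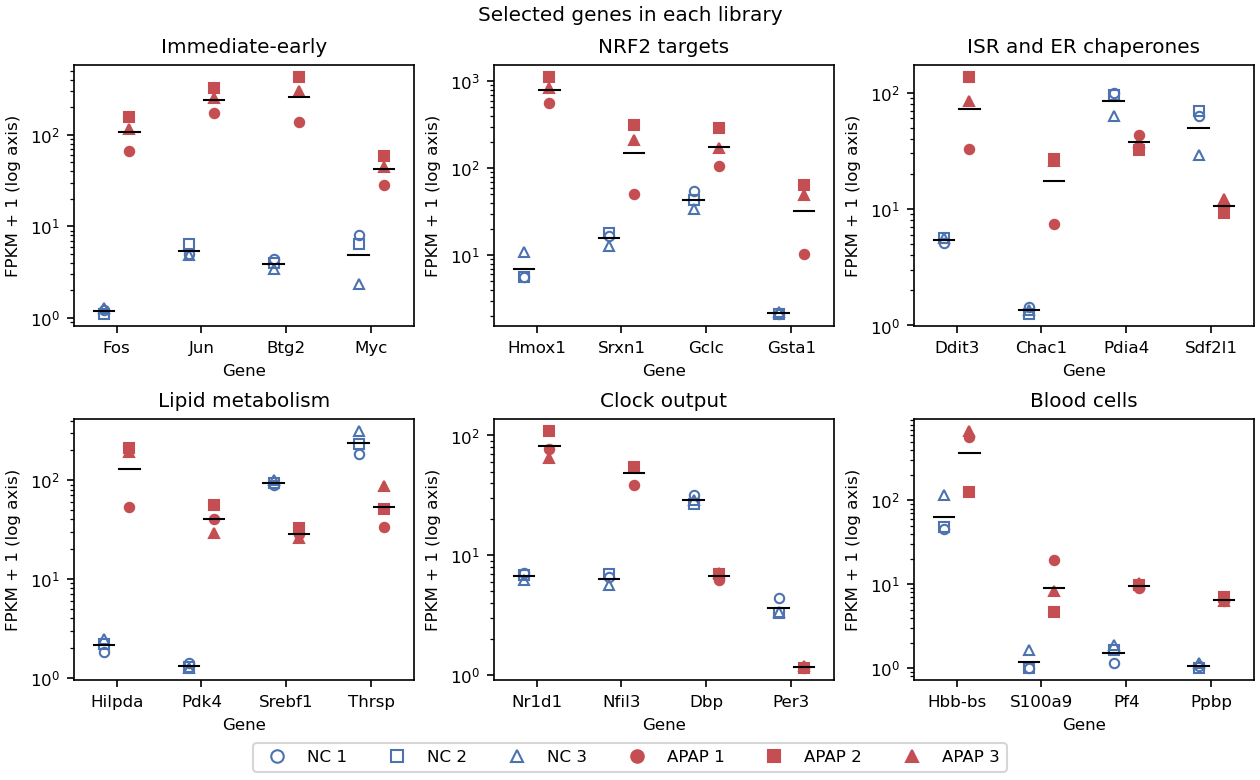
FPKM + 1 on a log axis (vertical) of 24 genes (horizontal axis, in 6 panels) in each library, with open blue symbols for NC and filled red symbols for APAP livers, a shape for each replicate number, and black bars at the group mean of log2(FPKM + 1). Stress and immediate-early genes are apart by group in every liver, whereas Hbb-bs and S100a9 spread widely among the APAP livers.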

How the data were processed

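The authors made libraries from liver mRNA and deposited FPKM for each library with the length used for each gene. The submitters' notes name GRCm38 as the genome build, and the aligner, the counter and the strandedness are not given in the sources used here. FPKM times length came to whole multiples of 1 step in each library (within 0.1 of a whole number), which gave back the reads, and the denominators followed size factors, not read totals. Genes were tested if FPKM averaged 1 or more across the 9 libraries, and 29683 genes were at 0 in all 9.

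The 3 NC and 3 APAP libraries were compared with limma 3.58.1 in R 4.3.3 on log2(FPKM + 1), with a trend in the variance and Benjamini-Hochberg adjustment over all genes tested. An exact permutation test of 3 against 3 cannot give a two-sided p under 0.1, so none is given. Exon overlaps were read from GENCODE on GRCm38. Promoters are those of RefSeq. The summaries were made with numpy 2.4.6 and pandas 2.3.3 in Python 3.11.15, and the figures with matplotlib 3.10.9.

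Replicate numbers were not taken as pairs, since none is described. Deviations from the group mean correlated across genes at 0.213, 0.160 and 0.378 between livers of the same number and at -0.342 to 0.0870 between others, and genes are not independent replicates. The title of NC 3 carries another date than those of the other libraries, and the number in that title is not 3. The block for the replicate number joined it with APAP 3, which the titles do not bear out. The alternatives tried were no filter beyond a value above 0, a stricter one at 5 FPKM, a pseudocount of 0.1, quantile normalization, a fit of all 9 libraries, a block for the replicate number, limma with no trend, voom on the reads, the adjusted p alone, leaving out each library and, chosen after seeing the data, scaling to all reads on genes.

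The genes and lists were chosen with earlier results of these data known. Genes named are, of called genes with groups apart, the 15 largest rises and falls on the log2 scale and the 15 largest changes in mean FPKM each way, up to 6 genes that rose and 6 that fell in a list, chosen members of each list and all cell type markers, and any other is said to be chosen after its values were seen. For length, some genes that this rule allows were left out after their values were seen, among them genes whose call or direction changed under an alternative, so the genes named may be steadier than the whole. Results of a few genes are not reported here.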

Additional observations from a re-analysis of the deposited data

How the results depend on the processing

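The counts of 494 higher and 272 lower genes stayed within 1.5 times under a fit of all 9 libraries (502 and 281), all genes above 0 (380 and 211), limma without trend (492 and 272), quantile normalization (444 and 307) and the replicate block (506 and 275), and without each library in turn (443 to 559 and 236 to 313). A mean of at least 5 FPKM, which leaves fewer genes to test, gave 308 and 170. A pseudocount of 0.1 gave 695 and 453, voom 719 and 478, scaling to all reads, chosen after seeing the data, 361 and 473, and the adjusted p alone, which drops the fold change threshold, 1243 and 1271. The cause of the changes with the pseudocount, voom and the scaling was not tested.

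Of the 766 genes called, 550 kept the call and its direction when all genes above 0 were tested, 478 at a mean of at least 5 FPKM, 633 with scaling to all reads, 716 after quantile normalization, 757 under voom, 760 in the fit of all 9 libraries, 762 with the replicate block, 764 without trend and 765 with the pseudocount, and without 1 library between 622 and 714. Of genes that were not called, Ass1 turned to -0.027 after quantile normalization, and Clec4g and Igkc to -0.070 and -0.13 with scaling to all reads. Without 1 library the log2 fold change of Clec4g ranged from -0.092 to 0.57 and that of Igkc from -0.34 to 0.41. The cause was not tested. A single read gives 0.0578 to 0.0807 FPKM per kilobase, and 3 livers in each group limit what could be called.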

Other observations

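Among called genes outside the lists, the following were chosen after their values were seen. Tiparp, a target of the dioxin receptor, stood at 0.880, 1.13 and 0.933 FPKM in NC and 17.8, 30.9 and 32.4 after APAP (log2 fold change 3.78, SE 0.22, adjusted p = 6.20e-05), while the receptor gene Ahr itself fell. Chka, choline kinase, stood at 1.06, 1.46 and 1.19 FPKM in NC and 20.2, 87.6 and 42.7 after APAP (log2 fold change 4.28, SE 0.45, adjusted p = 0.000754). Ifrd1, a stress-induced regulator of transcription, stood at 2.70, 2.66 and 2.69 FPKM in NC and 29.8, 131 and 98.2 after APAP (log2 fold change 4.33, SE 0.47, adjusted p = 0.000964). In all 3 every APAP liver lay above every NC liver. Rgs16, which ends signalling by G proteins and in liver follows fasting and feeding, stood at 0.487, 1.53 and 2.88 FPKM in NC and 21.0, 16.9 and 33.2 after APAP (log2 fold change 3.28, SE 0.36, adjusted p = 0.00100), and every APAP liver lay above every NC liver, with APAP 3 highest and APAP 2 lowest. Ets2 (3.38), a factor activated by ERK, and Trib1 (2.67), a pseudokinase that lowers lipogenesis, also rose. Tiparp, Ahr, Chka, Ifrd1 and Rgs16 overlap other genes.

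Of genes known from the pericentral zone, the following 3, also chosen after their values were seen, fell. Cyp26a1, which degrades retinoic acid, stood at 13.05, 16.1 and 20.3 FPKM in NC and 6.31, 5.55 and 6.76 after APAP (log2 fold change -1.26, SE 0.17, adjusted p = 0.00215). Cldn2, a tight junction protein, stood at 20.1, 20.2 and 19.8 FPKM in NC and 8.65, 2.43 and 4.74 after APAP (log2 fold change -1.87, SE 0.33, adjusted p = 0.00619). Notum, an enzyme that inactivates Wnt proteins, stood at 10.4, 7.23 and 10.6 FPKM in NC and 3.19, 2.28 and 7.42 after APAP (log2 fold change -1.08, SE 0.33, adjusted p = 0.0481). Notum was no longer called with a pseudocount of 0.1 or without APAP 1, APAP 2, NC 1, NC 2 or NC 3 (adjusted p = 0.0503, 0.0999, 0.134, 0.133, 0.0718 and 0.123). Over all genes above 0, no call was made for Cldn2 and Notum (adjusted p = 0.0577 and 0.193, lowest 0.000761 and 0.00579). Notum overlaps other genes.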
